A study of Mus musculus with 48 samples.

Results

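The acute-phase proteins described here are 10 genes: the serum amyloid A genes Saa1, Saa2, Saa3 and Saa4, the orosomucoids Orm1 and Orm2, lipocalin 2 (Lcn2), haptoglobin (Hp), and the pentraxins Apcs (serum amyloid P) and Crp (C-reactive protein). They were chosen by name, as the 12 probes that carry 1 of these gene names in the array files, out of 56605 probes that are not controls. All 12 probes passed the filter on dim signal, which kept 33323 probes with 22029 gene names in all, and they were well above background on every array except 1 Lcn2 probe, which was so on 47 of 48 arrays. Liver RNA was hybridised to 48 one-colour arrays, 1 for each male C57BL/6J mouse. WT mice, Pparα hep-/- mice and Pparα-/- mice were fed a low-fat control diet (CTRL) or a high fat diet with 60% fat (HFD), with 8 mice in each of the 6 groups. The labels give 12 weeks of diet and 20 weeks of age, whereas the methods give a shorter feeding period. Pparα hep-/- mice carried a floxed Pparα and an albumin-driven Cre recombinase, which deletes the gene in hepatocytes, and Pparα-/- mice lacked it in every cell. According to the methods all mice were housed at thermoneutrality and killed fed, the WT mice were bought from a supplier, and both deleted lines were bred in-house.

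The acute-phase response is the change in plasma proteins that the liver makes during inflammation or injury. Interleukin-6 acts on hepatocytes through the Gp130 receptor and STAT3, and interleukin-1 and tumour necrosis factor act through NF-kappa B and C/EBP factors. Positive acute-phase proteins rise in plasma and negative ones, such as albumin and transthyretin, fall. In mice serum amyloid A and serum amyloid P are the main reactants, and C-reactive protein responds little. PPARα is a nuclear receptor for fatty acids that drives their oxidation in hepatocytes and is known to restrain inflammatory transcription.

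The promoters of 4 members that differed between groups are shown first, because C/EBP, STAT and NF-kappa B sites are the ones through which the response is known to act. They are the 250 bases before the start of transcription in RefSeq (GRCm38.p6), printed 5′ to 3′ on the strand of the gene, and capitals mark matches to the C/EBP motif TTGCNNAA on either strand. Saa1 lies on the minus strand at chr7:46742981-46743230, Saa2 on the plus strand at chr7:46751583-46751832, Saa3 on the minus strand at chr7:46715677-46715926 and Lcn2 on the minus strand at chr2:32387740-32387989.
Saa1: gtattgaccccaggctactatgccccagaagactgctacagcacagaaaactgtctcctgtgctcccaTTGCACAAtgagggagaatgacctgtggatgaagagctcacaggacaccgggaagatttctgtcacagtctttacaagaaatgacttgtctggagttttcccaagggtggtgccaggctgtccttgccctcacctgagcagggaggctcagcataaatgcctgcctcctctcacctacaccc
Saa2: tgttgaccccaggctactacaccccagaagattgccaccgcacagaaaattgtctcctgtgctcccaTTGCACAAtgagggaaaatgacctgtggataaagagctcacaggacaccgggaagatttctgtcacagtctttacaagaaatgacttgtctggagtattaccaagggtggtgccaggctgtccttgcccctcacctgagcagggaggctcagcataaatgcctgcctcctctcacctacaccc
Saa3: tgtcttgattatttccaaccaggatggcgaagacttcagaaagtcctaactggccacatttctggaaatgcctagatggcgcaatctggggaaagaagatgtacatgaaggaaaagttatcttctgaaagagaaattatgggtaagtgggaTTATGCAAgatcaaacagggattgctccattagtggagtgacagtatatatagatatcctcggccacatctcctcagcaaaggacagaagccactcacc
Lcn2: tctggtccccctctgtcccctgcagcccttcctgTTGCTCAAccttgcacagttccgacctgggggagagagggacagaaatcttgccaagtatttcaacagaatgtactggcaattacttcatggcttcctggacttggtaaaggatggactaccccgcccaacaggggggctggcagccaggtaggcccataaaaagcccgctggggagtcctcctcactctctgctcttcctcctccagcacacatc
Saa1 and Saa2 face away from each other on chromosome 7, and 94.8% of 251 aligned positions were identical between their promoters. The other 27 pairs of member promoters had 42.7% to 53.2% identical positions, so their alignments were far less alike. Promoters of 8 of the 10 members were in the table, and Orm1 and Hp were not matched. The C/EBP motif was found in 6 of the 8, against 9.56% of 32851 promoters of the same length. These were Saa1, Saa2, Saa3, Saa4, Orm2 and Lcn2. The STAT motif TTCNNNGAA was found in 1 of the 8, that of Apcs, against 7.02% of all promoters. The NF-kappa B motif was found in 0 of the 8, against 4.65% of all promoters. All motifs were searched on both strands, no match overlapped another, and a match is a run of letters and not a measured site.

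The probes decide which transcripts are read. The probe named Saa1 lies at chr7:53996070-53996129 of mm9, and its letters are shown because Saa1 and Saa2 are near-identical copies.
Saa1 probe: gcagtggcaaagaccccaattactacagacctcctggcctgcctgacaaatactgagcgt
Saa3 probe: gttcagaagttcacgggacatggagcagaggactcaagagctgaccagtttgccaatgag
Lcn2 second probe: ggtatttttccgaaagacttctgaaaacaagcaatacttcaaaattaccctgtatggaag
The Saa2 probe lies at chr7:54009535-54009594. Transcript sequences were not used here, so signal shared between Saa1 and Saa2, or between Orm1 and Orm2, cannot be told apart, and both pairs are given as uncertain. RefSeq lists Saa1 and Saa2 as synonyms of each other, and the names used are those in the array files. The Saa3 probe lies at chr7:53967559-53967618. The second Lcn2 probe spans chr2:32241037-32241281, which is longer than its 60 bases, as for a probe laid across an intron. The remaining probes lie at chr7:53983662-53983721 for Saa4, chr4:63007395-63009038 for Orm1, chr4:63024979-63025038 for Orm2, chr2:32240199-32240258 for the brighter Lcn2 probe, chr8:112099045-112099104 for Hp and chr1:174824959-174825018 for Apcs, all in mm9. Members are compared between groups only, because the signals of different probes are not on a common scale.

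Array weights, which let noisier arrays count less, ranged from 0.189 to 2.53, and the 2 wash batches each held 3 to 5 mice of each group. In WT mice on the HFD, replicates 1 and 2 stood apart from the other 6 mice, so the values of the members that rest on this group most are given with and without them. These 2 mice were picked after the data were seen, as the mice of the group with the highest Saa3, and they were the highest of the group for every member. Leaving them out therefore lowers the WT HFD level of each member by construction, and the values without them are given as a description. Their array weights were 0.537 and 0.343. The targeted gene was lower in both deleted lines by its brighter probe, with differences from WT of -0.65 and -0.42 on the CTRL diet and -1.08 and -0.85 on the HFD for Pparα-/- and Pparα hep-/- mice, in that order. Its other probe did not pass the test in Pparα hep-/- mice on the CTRL diet (-0.10, adjusted p = 0.454 from limma). Bulk liver RNA cannot tell more cells of a type from more RNA per cell.

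**Figure D1:**
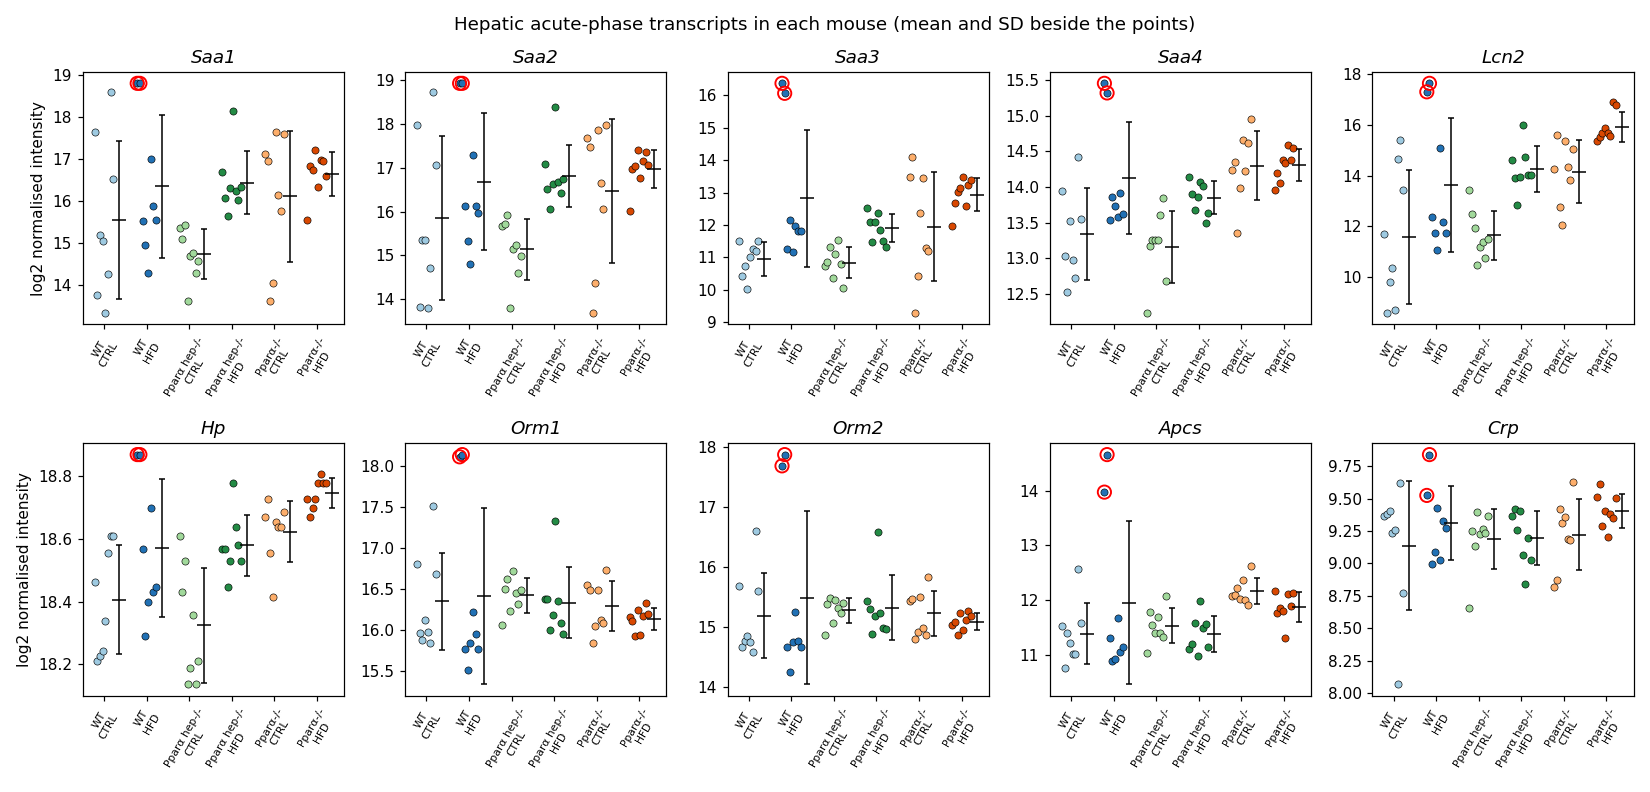
Log2 normalised intensity of the 10 acute-phase transcripts, 1 point per mouse, in the 6 groups (8 mice each), with the mean and SD beside the points; red rings mark replicates 1 and 2 of the WT mice on HFD. Saa1 and Saa2 rise from the CTRL to the HFD mice without overlap in the Pparα hep-/- line, and both ringed mice lie above the other 6 of their group in every panel.

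Saa1 and Saa2, the main inducible serum amyloid A genes of hepatocytes, whose proteins travel on high-density lipoprotein, were higher on the HFD in Pparα hep-/- mice. The log2 normalised intensity of Saa1, given as lowest, median and highest mouse, ran from 13.62 over a median of 14.72 to 15.44 in Pparα hep-/- mice on CTRL and from 15.65 over 16.27 to 18.14 on the HFD. The values for Saa2 were 13.79, 15.19 and 15.93 on CTRL and 16.06, 16.64 and 18.38 on the HFD. Neither gene's diet groups overlapped. The fitted rise of Saa1 was 1.97 on the log2 scale, or 3.92-fold (standard error 0.48, adjusted p = 0.00316 from limma), and that of Saa2 was also 1.97, or 3.93-fold (standard error 0.47, adjusted p = 0.00224). Both calls were lost with equal weights for all arrays, where the rises were 1.86 each (adjusted p = 0.0816 and 0.0673 from limma), and in the second wash batch alone.
In WT mice neither gene passed the test for diet. Saa1 ran from 13.33 over a median of 15.11 to 18.59 on CTRL and from 14.28 over 15.71 to 18.81 on the HFD. The fitted difference was 0.18 with a 95% interval of -0.98 to 1.33 (adjusted p = 0.883 from limma), and it was -0.15 without replicates 1 and 2 of the HFD group (adjusted p = 0.889). Within the wash batches the WT difference was 2.10 in the first and -0.48 in the second.
For Pparα-/- mice Saa1 ran from 13.60 over 16.55 to 17.64 on CTRL, and the HFD mice lay within a narrower range, from 15.54 over 16.79 to 17.21. The diet difference of 0.41 had an interval of -0.61 to 1.44 (adjusted p = 0.595 from limma), and it had opposite signs within the wash batches, 1.68 and -0.60. On CTRL, Saa1 in Pparα-/- mice stood 3.21-fold above the Pparα hep-/- line (log2 difference 1.68, standard error 0.52, adjusted p = 0.0133 from limma), with 6 of 8 mice above the mean of the other line. The value was 0.85 within the first and 2.05 within the second wash batch, and the call was lost with equal weights for all arrays (1.46, adjusted p = 0.0932 from limma). By unweighted group means Saa1 and Saa2 both ran from Pparα hep-/- CTRL over WT CTRL, Pparα-/- CTRL, WT HFD and Pparα hep-/- HFD to Pparα-/- HFD, and no neighbours in that order differed at an adjusted p of 0.05. The place of the WT HFD mice rested on replicates 1 and 2. Without them the mean of Saa1 in that group went from 16.35 to 15.53, the second lowest of the 6, and that of Saa2 from 16.69 to 15.94, the third lowest.

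Saa3, an inducible serum amyloid A that macrophages and adipocytes also make, had its highest group mean in Pparα-/- mice on the HFD. Its log2 intensity ran from 11.97 over a median of 13.08 to 13.48 in Pparα-/- HFD mice and from 11.33 over 11.96 to 12.54 in Pparα hep-/- HFD mice. The difference of 1.05, or 2.08-fold, passed the test (adjusted p = 0.0383 from limma, standard error 0.40), and each of the 8 Pparα-/- mice lay above the other mean. The call was lost in 9 of the 48 fits that left out 1 mouse, in which the adjusted p reached 0.135, and with equal weights (adjusted p = 0.253). On CTRL the Pparα-/- mice spread from 9.29 over 11.83 to 14.09, against 10.05, 10.82 and 11.53 in Pparα hep-/- mice and 10.03, 11.10 and 11.50 in WT mice. Saa3 in the Pparα-/- line exceeded the Pparα hep-/- line by 1.44 (2.71-fold, standard error 0.44, adjusted p = 0.0124 from limma), a call lost without replicate 6 of the Pparα-/- mice. Within the wash batches this difference was 0.22 and 2.08, and the call was lost in the first alone. Saa3 in the Pparα-/- line exceeded WT by 1.30 (adjusted p = 0.0354 from limma, standard error 0.49), but 2 of the 8 Pparα-/- mice lay below the WT mean. The call was lost without replicate 1, 2, 5 or 6 of the Pparα-/- CTRL mice or replicate 2, 4 or 5 of the WT CTRL mice. Within the wash batches this last value was 0.23 and 1.75. The HFD rise in Pparα hep-/- mice was 1.20 on the log2 scale, or 2.30-fold (standard error 0.41, adjusted p = 0.0321 from limma). Its log2 value was 1.16 and 1.13 within the wash batches. This call was lost without replicate 4 or 8 of the CTRL mice or replicate 1 or 5 of the HFD mice, and with equal weights (adjusted p = 0.270), no wash term, the replicate block or no filter. In WT mice the diet difference of Saa3 was 1.26, or 2.40-fold, and did not pass (adjusted p = 0.0618 from limma), with 8 of 8 HFD mice above the CTRL mean. It was 0.78 without HFD replicates 1 and 2 (adjusted p = 0.144 from limma) and 1.87 with equal weights (adjusted p = 0.0200). Between Pparα-/- and WT mice on the HFD the difference was 0.85 (adjusted p = 0.0947 from limma), and 1.34 without those 2 mice (adjusted p = 0.000922). With equal weights it was 0.12 (adjusted p = 0.897 from limma). With equal weights the calls on CTRL were lost too, at 0.99 from WT (adjusted p = 0.179 from limma) and 1.18 from the Pparα hep-/- line (adjusted p = 0.141).

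Saa4, the constitutive serum amyloid A of hepatocytes, was higher in Pparα-/- mice on the CTRL diet. It ran from 13.36 over 14.30 to 14.96 in Pparα-/- mice, from 12.53 over 13.28 to 14.43 in WT mice and from 12.24 over 13.25 to 13.84 in Pparα hep-/- mice. All 8 Pparα-/- mice lay above both other means, although the ranges overlapped. The difference was 0.98 from WT (1.97-fold, standard error 0.22, adjusted p = 0.000586 from limma) and 1.13 from the Pparα hep-/- line (2.19-fold, adjusted p = 2.24e-05, standard error 0.20). Both calls held in each of the 48 fits that left out 1 mouse. The difference from WT was not called in the second wash batch alone, nor that from the Pparα hep-/- line in the first alone. Between the HFD groups the differences were 0.41 from WT (adjusted p = 0.0823 from limma) and 0.43 from the Pparα hep-/- line (adjusted p = 0.0686), and neither passed. Without WT HFD replicates 1 and 2 both did, at 0.59 (adjusted p = 0.00451 from limma) and 0.43 (adjusted p = 0.0334), and the second also did with a slide block. With equal weights for all mice the difference from WT was 0.18 (adjusted p = 0.617 from limma). On the HFD Saa4 rose by 0.65 in the Pparα hep-/- line (adjusted p = 0.0120 from limma), and the difference in Pparα-/- mice was -0.06 with an interval of -0.45 to 0.34. The call in the Pparα hep-/- line was lost with equal weights (0.74, adjusted p = 0.0873 from limma), with the median signal (0.52, adjusted p = 0.0534) or the processed signal (0.51, adjusted p = 0.0528) scaled to the 75th percentile, and in the first wash batch alone. In WT mice the HFD difference of Saa4 did not pass, and it was 0.34 without HFD replicates 1 and 2 (adjusted p = 0.241 from limma).

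Lcn2, which binds bacterial siderophores and is made by hepatocytes and stored in neutrophil granules, passed the test in 7 of the 9 comparisons of diet or genotype and had the largest log2 difference of the 10 members in each of these 7. Its brighter probe ran from 8.59 over a median of 11.02 to 15.41 in WT mice on CTRL and from 11.06 over 12.26 to 17.63 on the HFD. In Pparα hep-/- mice it ran from 10.46 over 11.43 to 13.42 on CTRL and from 12.82 over 14.01 to 15.99 on the HFD. Pparα-/- mice ran from 12.03 over 14.30 to 15.58 on CTRL and from 15.37 over 15.68 to 16.90 on the HFD. The WT mice thus covered nearly the whole range, and the Pparα-/- mice on the HFD were the least spread.
Lcn2 rose 9.11-fold on the HFD in the Pparα hep-/- line (log2 difference 3.19, standard error 0.59, adjusted p = 0.000150 from limma) and 3.55-fold in the Pparα-/- line (1.83, standard error 0.62, adjusted p = 0.0256), with 8 of 8 HFD mice above the CTRL mean in both lines. With equal weights these were 2.76 (adjusted p = 0.0503 from limma) and 1.78 (adjusted p = 0.149), and neither passed. The Pparα-/- call was lost without replicate 4 of the CTRL mice or replicate 7 or 8 of the HFD mice. In WT mice the difference of 1.52 had an interval of 0.12 to 2.93 and did not pass (adjusted p = 0.128 from limma), although it was 2.14 and passed without CTRL replicate 7, the highest mouse of that group (adjusted p = 0.0177). Without HFD replicates 1 and 2 it was 0.96 (adjusted p = 0.287 from limma), and within the wash batches it was 3.31 and 0.81. On CTRL, Lcn2 in the Pparα-/- line was 9.11 times WT (3.19, standard error 0.71, adjusted p = 0.000374 from limma) and 7.62 times the Pparα hep-/- line (2.93, standard error 0.64, adjusted p = 0.000391). In the second wash batch alone the first of these was not called, and in the first wash batch alone the second was not. On the HFD the Pparα-/- line was 11.3-fold above WT (3.49, standard error 0.61, adjusted p = 6.77e-06 from limma), and 16.6-fold above without the 2 WT mice. With equal weights, where these mice count as much as any other, it was 4.90-fold above (2.29, adjusted p = 0.0295 from limma), and within the wash batches the log2 value was 1.51 and 3.08. It was 2.97-fold above the Pparα hep-/- line (1.57, standard error 0.57, adjusted p = 0.0319 from limma), a call lost without replicate 3 or 6 of the Pparα hep-/- mice or replicate 7 or 8 of the Pparα-/- mice. That call was also lost with equal weights (1.60, adjusted p = 0.193 from limma), no filter or either wash batch alone. The Pparα hep-/- line was itself 3.80-fold above WT (1.93, adjusted p = 0.0166 from limma), and 5.61-fold without the 2 WT mice. Within the wash batches, of which the first held WT replicate 2 and the second WT replicate 1, this last value was -0.27 and 1.76, and the call was also lost without WT replicate 5 or 8. With equal weights the value was 0.69, or 1.61-fold (adjusted p = 0.664 from limma), and no wash term, the replicate block or no filter ended the call too. The second Lcn2 probe passed in the same 7 comparisons, with log2 differences of 1.62 to 3.44 where the first had 1.57 to 3.49. From the lowest to the highest unweighted mean the order was WT CTRL, Pparα hep-/- CTRL, WT HFD, Pparα-/- CTRL, Pparα hep-/- HFD and Pparα-/- HFD, and 2 of the 5 neighbouring steps passed, from WT HFD to Pparα-/- CTRL (adjusted p = 0.0480) and from Pparα hep-/- HFD to Pparα-/- HFD (adjusted p = 0.0319).

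Hp, the plasma carrier of free haemoglobin, was among the brightest probes on the array, ranked from 3 to 44 of 33323. Quantile normalization sets the value of each rank, and its part in the small Hp differences was not tested. It ran from 18.14 over 18.28 to 18.61 in Pparα hep-/- mice on CTRL and from 18.45 over 18.57 to 18.78 on the HFD. The rise of 0.33 was small but passed the test (1.26-fold, standard error 0.05, adjusted p = 2.52e-05 from limma), and was 0.25 with scaling to the 75th percentile (adjusted p = 0.0130). On CTRL, Hp in the Pparα-/- line exceeded WT by 0.25 (adjusted p = 0.00191 from limma) and the Pparα hep-/- line by 0.36 (adjusted p = 5.21e-06), and both kept their direction and passed with that scaling. On the HFD its differences of 0.26 between Pparα-/- and WT mice and 0.14 between Pparα-/- and Pparα hep-/- mice turned to -0.04 and -0.0025 with that scaling (adjusted p = 0.652 and 0.984 from limma). Its diet difference in Pparα-/- mice was 0.12 (adjusted p = 0.129 from limma) and turned to -0.21 (adjusted p = 0.0416), so no direction is given for these 3 comparisons. Between Pparα hep-/- and WT mice on the HFD the Hp difference was 0.12 (adjusted p = 0.113 from limma). It turned to -0.04 (adjusted p = 0.709), and no direction is given there either. With that scaling the median of all probes shifted by -0.10 for the HFD in Pparα-/- mice and by -0.12 between Pparα-/- and WT mice on the HFD.

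Orm1 and Orm2, glycoproteins that bind basic drugs and modulate immune cells, did not pass in any of the 12 comparisons over all 48 mice. Orm1 ran from 15.84 over 16.06 to 17.51 in WT mice on CTRL and from 15.52 over 15.90 to 18.14 on the HFD. Its other 4 group medians lay between 16.17 and 16.47. Orm2 medians lay between 14.75 and 15.34 in the 6 groups. Without replicates 1 and 2 of the WT HFD mice, the HFD mice were lower than the CTRL mice in WT by 0.56 for Orm1 (adjusted p = 0.00981 from limma) and by 0.53 for Orm2 (adjusted p = 0.0497), the remaining 6 HFD mice running up to 16.22 and 15.24. On the HFD, without them, Pparα hep-/- mice were above WT mice by 0.58 for Orm1 (adjusted p = 0.00194 from limma) and 0.70 for Orm2 (adjusted p = 0.00227). The highest mice of the groups compared stayed in. They were replicate 7 of the WT CTRL mice (17.51 and 16.59) and replicate 5 of the Pparα hep-/- HFD mice (17.33 and 16.57). Leaving out mice of the WT HFD group only lowers that group by construction, so these values are a description.

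Apcs and Crp are pentraxins, ring-shaped proteins that bind phosphocholine, chromatin and amyloid. Apcs was higher in Pparα-/- mice on CTRL, running from 11.90 over 12.08 to 12.62, against 10.75, 11.30 and 12.57 in WT mice. The highest WT mouse, replicate 7, was the only one above 11.90 and made the groups overlap. The difference was 0.75 (1.68-fold, standard error 0.28, adjusted p = 0.0328 from limma), and it was lost without replicate 5 or 8 of the Pparα-/- mice or replicate 2 or 5 of the WT mice, and with equal weights (adjusted p = 0.0719), the replicate block, the median signal scaled to the 75th percentile, no filter or either wash batch alone. On the HFD the difference from WT was 0.43 (adjusted p = 0.139 from limma), and 0.76 without WT replicates 1 and 2 (adjusted p = 4.74e-05). With equal weights this difference was -0.08 (adjusted p = 0.888 from limma), so the order of these groups depended on the weights. The unweighted mean of the WT HFD mice was 11.95, the fifth of the 6 groups, and without replicates 1 and 2 it was 11.16, the lowest.
Crp had 6 group medians between 9.23 and 9.39, closer together than those of any other member. It passed only between Pparα-/- and Pparα hep-/- mice on the HFD, by 0.27 (standard error 0.09, adjusted p = 0.0260 from limma), and the call was lost without replicate 5, 6 or 8 of the Pparα hep-/- mice or replicate 8 of the Pparα-/- mice. The call was also lost with equal weights (0.21, adjusted p = 0.365 from limma), no wash term, the replicate block, no filter or either wash batch alone. A second probe named Crp, at chr1:174762815-174762874, belongs to another transcript model far from the first at chr1:174629452-174629511, and it passed in a different comparison, between Pparα-/- and WT mice on CTRL (0.49, adjusted p = 0.0105 from limma). The probes thus disagreed on the comparison, and no direction is given for the gene.

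**Figure D2:**
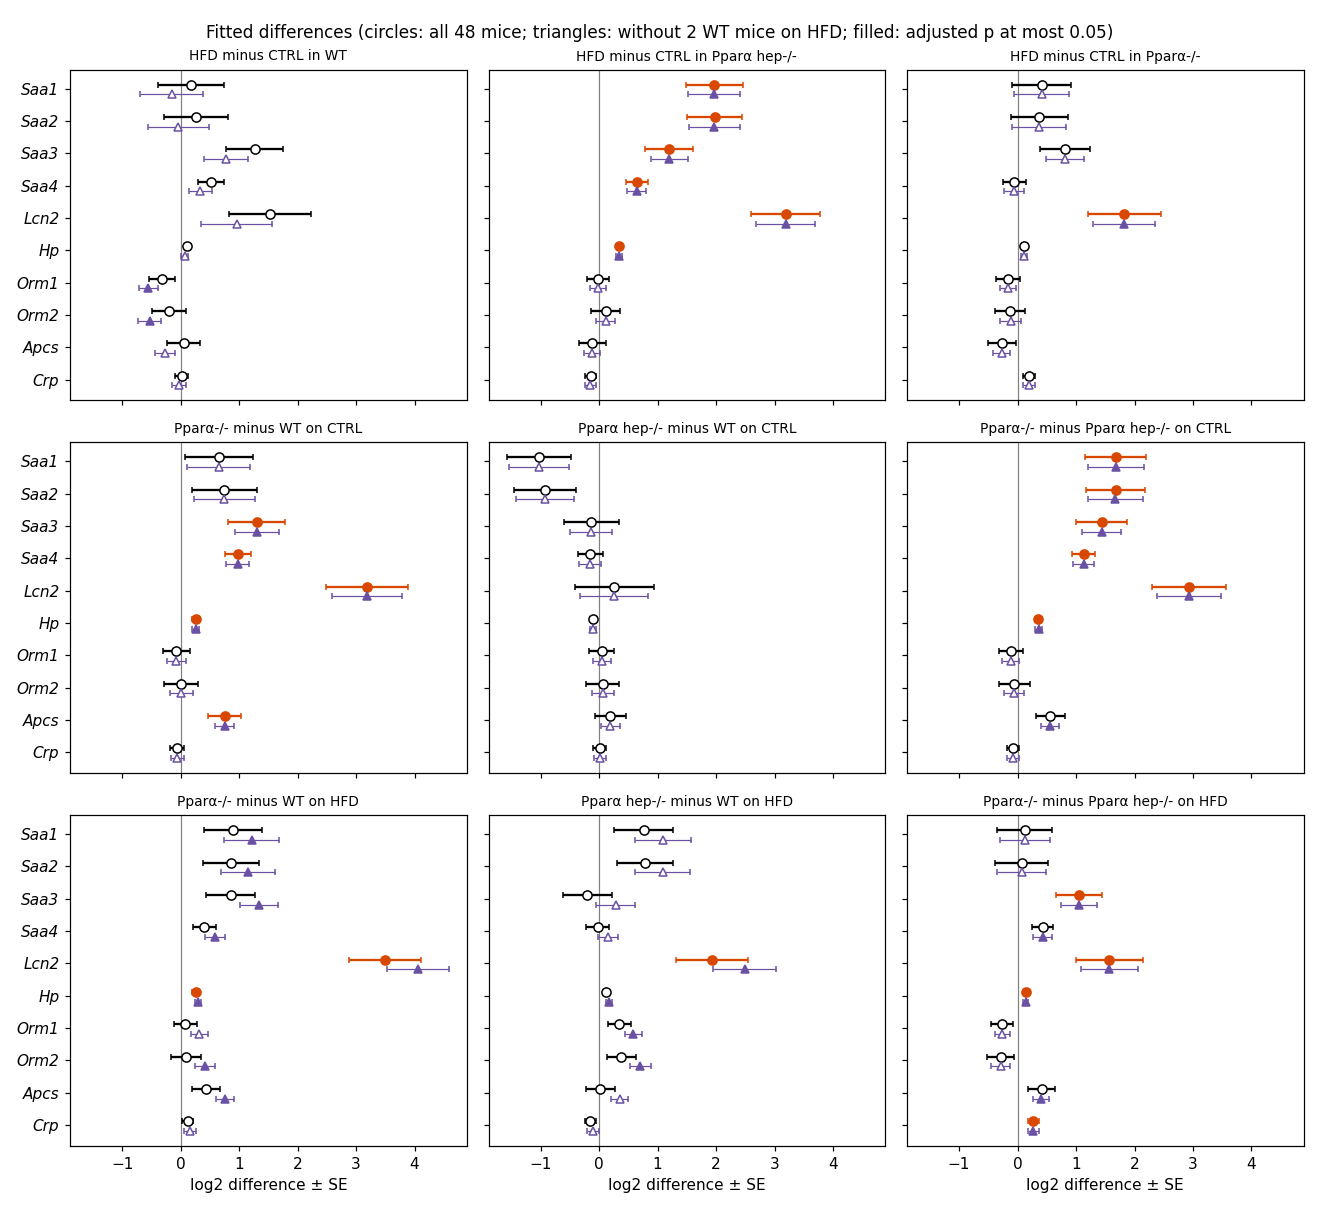
Fitted log2 differences with standard errors for 9 comparisons and 10 genes; circles use all 48 mice, triangles leave out replicates 1 and 2 of the WT mice on HFD, and filled symbols have an adjusted p of at most 0.05. Lcn2 lies farthest to the right where it passes, up to 3.49 for the circles and 4.05 for the triangles, and the small Hp differences on the HFD and for the diet in Pparα-/- mice change sign with scaling to the 75th percentile.

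Counted over the list, the HFD raised 6 of the 10 members in Pparα hep-/- mice, Saa1, Saa2, Saa3, Saa4, Lcn2 and Hp, while 9.46% of all probes tested rose in that comparison. The diet groups of 2 members, Saa1 and Saa2, did not overlap, against 0.591% of all probes. Signal shared between this pair cannot be told apart, so in each count that holds both they may stand for a single gene. In Pparα-/- mice 1 of 10 rose (Lcn2), against 12.2% of all probes, and in WT mice 0 of 10 passed, against 18.8% of all probes in either direction. At an unadjusted p of 0.05, 3 of 10 would be counted in WT mice by limma (Saa3, Saa4 and Lcn2), against 30.3% of all probes. With equal weights 2 passed in WT mice, Saa3 and Saa4, when 4201 of all probes were called in place of 6249. Saa3 passed there without HFD replicate 3, 5 or 8, and Saa4 without CTRL replicate 7 (0.67, adjusted p = 0.0239). The median member differed by 0.49 in Pparα hep-/-, 0.15 in Pparα-/- and 0.14 in WT mice, and the median of all probes lay between -0.02 and -0.01. This order depended on the settings, since the WT median was 0.679 with equal weights, where that of Pparα hep-/- mice was 0.51, and was 0.627 in the first wash batch, -0.288 in the second and -0.0352 without the 2 WT mice. With equal weights for all arrays, Hp alone passed in Pparα hep-/- mice (0.28, adjusted p = 0.0226 from limma), while the other 5 lost their calls. Of all probes 1270 were then called in place of 6734. With equal weights and without the 2 WT mice, 5 of 10 passed, and 1554 of all probes.

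Among genotypes on CTRL, 5 of 10 members were higher in the Pparα-/- line than in WT (Saa3, Saa4, Lcn2, Hp and Apcs), against 15.6% of all probes. In Pparα-/- against Pparα hep-/- mice 6 of 10 were higher (Saa1, Saa2, Saa3, Saa4, Lcn2 and Hp), against 12.2%. Between Pparα hep-/- and WT mice 0 of 10 passed, against 24.7% of all probes in either direction, with intervals such as -1.10 to 1.62 for Lcn2 and -2.15 to 0.09 for Saa1. At an unadjusted p of 0.05 the count by limma was also 0, against 35.6% of all probes, and without WT replicate 5 Saa1 passed at -1.51 (adjusted p = 0.0462). On the HFD 2 members were higher in the Pparα-/- line than in WT (Lcn2, and Hp with the change of sign given above), against 21.8% of all probes. Without the 2 WT mice, a choice that lowers every member in WT HFD mice, the count was 8 of 10 (all but Orm1 and Crp), against 45.5% of all probes in either direction. Among them Saa1 went from 0.89 (adjusted p = 0.143 from limma) to 1.22 (adjusted p = 0.0313), Saa2 from 0.86 (adjusted p = 0.143) to 1.15 (adjusted p = 0.0364) and Orm2 from 0.09 (adjusted p = 0.796) to 0.42 (adjusted p = 0.0457). With equal weights the count was 1, and 5 with equal weights and without those mice, when 10564 and 9884 of all probes were called in place of 15241. In Pparα hep-/- against WT mice 1 member was higher on the HFD, against 13.3%, and 4 without those mice (Lcn2, Hp, Orm1 and Orm2), against 25.8% in either direction. Over all 48 mice this Hp difference turned to -0.04 with scaling to the 75th percentile, so no direction is given for it. In Pparα-/- against Pparα hep-/- mice 4 of 10 were higher (Saa3, Lcn2, Crp by its brighter probe, and Hp with the change of sign given above), against 15.2%. With the mean of both Crp probes Crp was not called and the count was 3. With equal weights it was 0, when 6046 of all probes were called in place of 10188. No member was lower in any of these 9 comparisons over all 48 mice, except Hp for the HFD in Pparα-/- mice with scaling to the 75th percentile.

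A response to the HFD past the threshold in one line and not in another does not show that the lines differ, so the difference of the responses was fitted too. Over all 48 mice it passed for 0 of 10 members in each of 3 pairs of lines, against 10.4%, 14.4% and 3.42% of all probes for Pparα hep-/- minus WT, Pparα-/- minus WT and Pparα-/- minus Pparα hep-/-. At an unadjusted p of 0.05 limma would count 3, 0 and 5, against 26.4%, 29.4% and 16.7% of all probes. The response of Saa1 in the Pparα hep-/- line exceeded that of WT by 1.80 with an interval of 0.28 to 3.31 (adjusted p = 0.115 from limma), and that of Lcn2 by 1.67 with an interval of -0.18 to 3.51 (adjusted p = 0.241). Without replicates 1 and 2 of the WT HFD mice, 3 members passed, Saa1 at 2.12 (adjusted p = 0.0388 from limma), Saa2 at 2.01 (adjusted p = 0.0449) and Hp at 0.27 (adjusted p = 0.0192), against 12.6% of all probes, but 0 did so with equal weights as well, when 822 of all probes were called in place of 4204. Saa1 and Saa2 also passed without replicate 5 of the WT CTRL mice, at 2.29 and 2.19, and Hp without replicate 1 or 2 of the WT HFD mice or replicate 3 of the Pparα hep-/- CTRL mice. The response of Hp differed between Pparα-/- and Pparα hep-/- mice by -0.22 (adjusted p = 0.121 from limma), and by -0.45 with scaling to the 75th percentile (adjusted p = 0.0112).

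**Figure D3:**
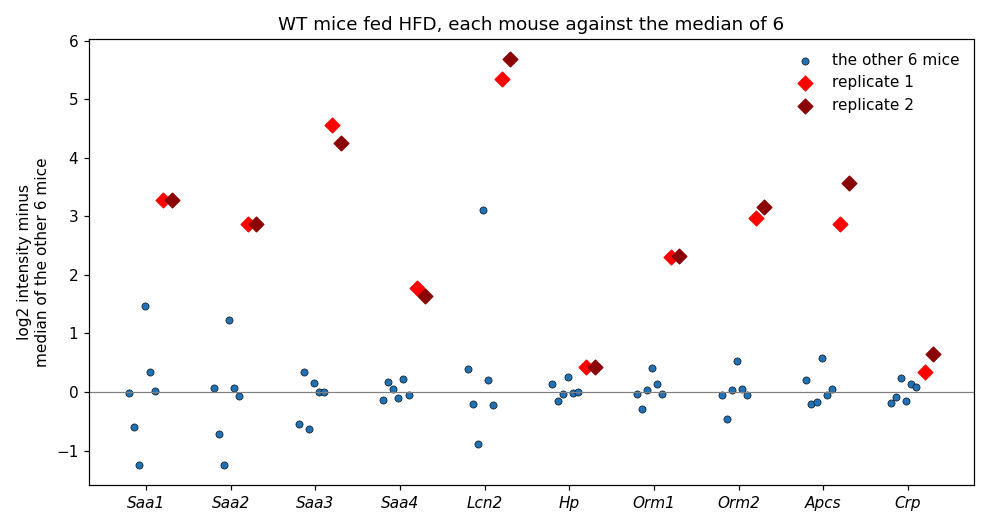
Log2 intensity of each WT mouse on HFD minus the median of the 6 mice other than replicates 1 and 2, for 10 genes; diamonds are replicates 1 and 2 and circles the other 6 mice. Both diamonds lie above all circles for each gene, from 0.34 for Crp in replicate 1 to 5.68 for Lcn2 in replicate 2.

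The 2 WT mice on the HFD carried acute-phase levels that no other mouse of the 48 reached for Saa3. Their Saa3 intensity was 16.37 and 16.06, against 11.18 to 12.14 in the other 6 mice of the group. Both lay above the other 6 for all 12 member probes, by 5.35 and 5.68 over their median for Lcn2, 4.56 and 4.25 for Saa3, 2.88 and 3.56 for Apcs, 2.98 and 3.17 for Orm2, 2.30 and 2.33 for Orm1, and 1.78 and 1.64 for Saa4. Saa1, Saa2 and Hp were tied between both mice at 18.81, 18.93 and 18.87, near the top of the normalised scale. Among all probes both mice lay above the other 6 for 12.0% and below them for 11.1%.
In the same mice, read against those shares, 14 of 18 other positive acute-phase proteins lay above the other 6 in both, such as Itih3 (17.70 and 17.68, against at most 16.09) and Lbp (12.74 and 12.94, against at most 11.66). Of the 8 negative acute-phase proteins 4 lay below (Alb, Ttr, Rbp4 and Serpina6) and 1 above (Fetub). Of 23 regulators 9 lay above, among them Stat3 (13.69 and 14.19, against at most 12.78), its feedback inhibitor Socs3 (13.09 and 12.63, against at most 10.37) and the receptor Il1r1 (12.26 and 12.76, against at most 10.40). Neutrophil markers lay above for 9 of 10, with S100a8 at 11.41 and 12.90 against at most 8.56 and Ngp at 7.58 and 8.88 against at most 5.10. Of 10 Kupffer cell and macrophage markers 1 did (Marco). Of 5 genes tested from the adipocyte list 1 lay above (Pck1) and 2 below. Pck1 was bright in all mice of the group (at least 15.63), so it is not read as an adipocyte marker here. The fat-store gene Cidec (8.30 and 7.96, against at least 11.40) and the complement gene Cfd (7.49 and 5.74, against at least 13.90) were the ones below. The part of these markers in the member levels was not tested.

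The members varied together within groups. After group and wash means were taken out, Pearson's r between pairs of members over the 48 arrays ran from -0.22 to 0.996, with a median of 0.66 over 45 pairs. Without the 2 WT mice the median was 0.48, so that part of the pattern rests on them. Saa1 and Saa2 kept 0.996, and Orm1 and Orm2 went from 0.994 to 0.982, each a pair of near-identical copies whose probes may share signal. The 2 Lcn2 probes had an r of 0.995, and Lcn2 and Hp went from 0.87 to 0.82. For Saa3, by which the 2 mice were picked, r to Apcs went from 0.59 to -0.20. The brighter Crp probe had r of at most 0.45 to any other member, whereas the second Crp probe reached 0.615 with Saa4, 0.54 with Apcs and 0.523 with Orm2, values that went to 0.415, 0.17 and 0.138 without the 2 WT mice. These are descriptions over arrays that share a normalization, and no test was made.

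**Figure D4:**
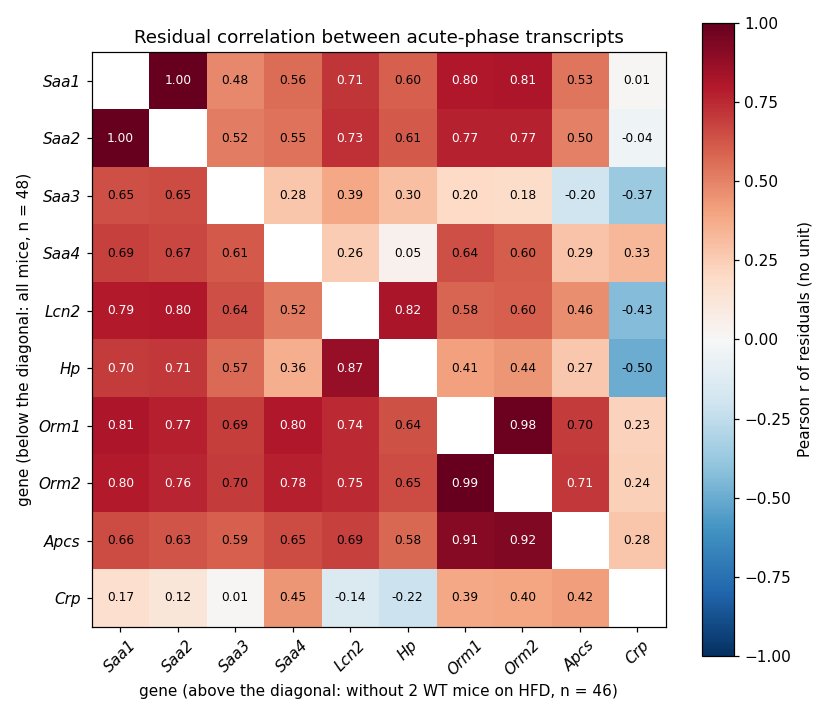
Pearson's r of residuals between 10 acute-phase transcripts after group and wash means were removed; below the diagonal all 48 mice, above it 46 mice without replicates 1 and 2 of the WT HFD group, with colour from -1 to 1. Saa1 with Saa2 is at 0.996 in both, whereas Saa3 with Apcs goes from 0.59 to -0.20.

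Over the 48 arrays, with wash means but not group means taken out, the 3 genes most like each member are named as a description. Saa1 was most like Lrg1 (r = 0.872), Steap4 (0.834) and C4b (0.819), and Saa2 had the same 3 genes. Saa3 was most like Runx1 (0.826), Chil3 (0.799) and Retnlg (0.773). Saa4 was most like C4b (0.862), an unnamed locus (0.861) and Serpina3n (0.860). Lcn2 was most like Tmem176a (0.935), Ssbp4 (0.896) and Tmem176b (0.896), and Hp like Tmem176a (0.875), Ssbp4 (0.860) and Bsg (0.860). Orm1 and Orm2 shared Cep55 (0.858 and 0.895) and Cpb2 (0.839 and 0.853) beside an unnamed transcript. Apcs was most like Aqp9 (0.903), Serpina10 (0.868) and Krtap11-1 (0.867), and Crp like Ctsh (0.831), an unnamed transcript (0.827) and AI182371 (0.820).

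The other genes of the pathway are read against the shares of all probes called higher, which were 9.46% for the HFD in Pparα hep-/-, 12.2% in Pparα-/- and 8.61% in WT mice, and 15.6% on CTRL and 21.8% on the HFD for Pparα-/- against WT mice. The shares called lower were 10.8%, 12.6% and 10.2% for the HFD in these lines, in that order. For Pparα-/- against WT mice they were 18.7% on CTRL and 24% on the HFD. In Pparα hep-/- mice the HFD raised 10 of 18 other positive acute-phase proteins, among them the haem carrier Hpx (0.35), the lipopolysaccharide-binding protein Lbp (0.68), Steap4 (0.97) and the metallothionein Mt2 (1.64), and lowered 1, the fibrinogen chain Fgb (-0.20). Their median difference was 0.29. Among Pparα-/- mice 7 of 18 rose and 1 fell (Serpina3m, -0.44), and in WT mice 2 rose (Il1rn and Mt1) and 1 fell (Fgb). Between Pparα-/- and WT mice 8 were higher and 1 lower on CTRL, and 14 were higher and 1 lower on the HFD, with Serpina3m the lower one in both. Of the 8 negative acute-phase proteins 0 fell on the HFD in any line, and a count of 0 of 8 lies near the shares called lower. Apoa1 and Serpina6 rose in Pparα-/- mice. On the HFD 0 were higher and 3 lower (Apoa1, Serpina6 and Fetub) in Pparα hep-/- than in WT mice, against 13.4% called lower. In Pparα-/- against WT mice 4 were higher there (Trf, Ahsg, Serpina6 and Fetub) and 1 was lower (Apoa1).
Of 23 regulators tested 6 rose and 1 fell on the HFD in Pparα hep-/- mice. Osmr, a receptor of the interleukin-6 family, rose by 0.65, the receptor Il22ra1 by 0.34, the transcription factor Cebpd by 0.70 and Creb3l3 by 0.38, and Tnf fell by 0.48. Pparα-/- mice had 6 that rose and 1 that fell, including Il1b (0.79) and Nfkb1 (0.43), and again Tnf, which fell by 0.54. In WT mice Cebpd rose by 0.73, while Socs3 fell by 1.62, Il1r1 by 1.02 and Rela by 0.24, in a comparison that held the 2 mice above. Il6 was not well above background on enough arrays to be tested. Of 10 receptors and partners the HFD raised 1 (Hpx) and lowered 1 (Lrp2) in Pparα hep-/- mice and raised 6 in Pparα-/- mice, where Fpr2, a receptor for serum amyloid A, rose by 0.81 and Cd163, the receptor for haptoglobin bound to haemoglobin, fell by 1.33.

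Markers of other cells differed in these comparisons too, against the same shares of all probes. In Pparα hep-/- mice the HFD raised 4 of 10 Kupffer cell and macrophage markers (Adgre1, Cd68, Lyz2 and Itgax) and 1 of 10 neutrophil markers (Retnlg), and the mean log2 level of the neutrophil list ran from 6.76 to 7.26 on CTRL and from 6.88 to 8.01 on the HFD. For Pparα-/- mice the counts were 8 and 3. Between Pparα-/- and WT mice on the HFD 9 of 10 macrophage and 7 of 10 neutrophil markers were higher, and 1 neutrophil marker, Elane, was lower. In that comparison the neutrophil list ran from 7.33 to 8.59 in Pparα-/- mice and from 6.54 to 10.39 in WT mice, where the top values are those of the 2 mice. On CTRL 4 of 10 macrophage and 0 of 10 neutrophil markers were higher in the Pparα-/- line than in WT, and Elane was lower (-0.36, adjusted p = 0.00175 from limma). Pparα-/- against Pparα hep-/- mice had 3 macrophage markers (Adgre1, Timd4 and Csf1r) and 4 neutrophil markers (S100a9, Camp, Ltf and Mpo) higher on the HFD, against 15.2% of all probes. On CTRL they had 0 macrophage markers and 2 neutrophil markers (Mpo and Cxcr2) higher, against 12.2%, and Elane was the 1 neutrophil marker lower on both diets. Pparα hep-/- against WT mice had 7 macrophage markers and 1 neutrophil marker (S100a9) higher on the HFD, against 13.3%, and 2 (Cd5l and Vsig4) and 1 (Ly6g) on CTRL, against 11.3%. Of the neutrophil markers Ngp was well above background on 1 or 2 of 8 arrays in every group but the Pparα-/- HFD mice, where it was so on 6, and the mean level of the macrophage list ran from 9.66 to 12.16 over all mice. The mean of the hepatocyte list of 6 genes lay between 15.97 and 16.58 in all 48 mice, and of these genes Cps1 fell on the HFD in every line, Tat fell in Pparα-/- mice, and Apob rose in Pparα hep-/- and Apoa1 in Pparα-/- mice. Among adipocyte and fat-store genes Cidec rose on the HFD in every line and Cfd in WT mice. Of 3 pancreas and 4 red blood cell markers tested 0 were higher on the HFD in any line, while Ctrb1 was lower in Pparα hep-/- mice and Ctrb1, Cela1 and Alas2 were lower in Pparα-/- mice. The part of these markers in the member differences was not tested.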

How the data were processed

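Liver RNA of 48 mice was measured on Agilent one-colour arrays. The authors deposited scanner files made with Feature Extraction 10.10.1.1, per the file headers, and the median signal intensity of each spot was used here, as in the methods. Their deposited log2 values correlated with the values used at r of 0.9994 to 0.9995 over 32815 probes and served as a check only.

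Spots with an outlier mark were left out, spots of a probe were averaged, and a probe was kept if 4 or more of the 8 arrays in any group had it well above background. Log2 intensities were quantile normalised and fitted with limma 3.58.1 in R 4.3.3 (with the data.table package, version 1.17.8), with a term for each of 6 groups and 2 wash batches, and with array weights. In all, 12 contrasts were tested, p-values were adjusted by Benjamini-Hochberg over all probes, and an adjusted p of at most 0.05 was called. Within a comparison 33317 probes had an adjusted p. Intervals cover 95%. The fit was tested on simulated data. Groups came from the labels, where each array is 1 mouse. Precision is limited by how many mice there are, since arrays have no read depth. An array had 28234 to 38217 spots well above background.

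Each member was represented by its brightest probe. The 3 genes most like a member were those with the highest Pearson's r after wash means were removed. Listed genes were named when called or when a count was 5 or fewer. Itih3, Lbp, Stat3, Socs3, Il1r1, S100a8, Ngp and Cidec in the 2 WT mice were chosen after their values were seen. Members and lists were chosen with earlier results of these data known. Promoters came from RefSeq and were aligned with biopython 1.88. Figures were drawn with matplotlib 3.10.9. Alternatives were other scalings, background corrections, filters, weights, batch terms, a stricter threshold and leaving out each mouse. Leaving out replicates 1 and 2 of the WT HFD mice was chosen after seeing the data. Some genes of the lists are not reported here by name.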

Additional observations from a re-analysis of the deposited data

Results flagged for a closer look

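Of 60 combinations of a member and a group, 8 held a mouse whose gap to its neighbour was beyond Dixon's limit for 8 values. For a single combination chance would give about 1 in 20. Members share mice and vary together, so the combinations are not independent and the count is not read against that rate. Replicate 5 of the Pparα hep-/- mice on the HFD was the highest of its group for Saa1 (18.14), Saa2 (18.38), Orm1 (17.33) and Orm2 (16.57). Replicate 7 of the WT mice on CTRL was the highest for Apcs (12.57). In Pparα-/- mice on the HFD, replicate 1 was the lowest for Saa2 (16.01) and replicate 5 the lowest for Apcs (11.31). Replicate 1 of the Pparα hep-/- mice on CTRL was the lowest for Crp (8.66). Both high WT mice on the HFD were not marked in this way, because each was the nearest neighbour of the other.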

How the results depend on the processing

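The direction of Hp depended on the scaling. With the median signal scaled to the 75th percentile, its difference was -0.21 for the HFD in Pparα-/- mice, -0.0432 between Pparα-/- and WT mice on the HFD and -0.0025 between Pparα-/- and Pparα hep-/- mice on the HFD. With the processed signal these were -0.26, -0.0857 and -0.0216, and the response of Pparα-/- minus WT mice was -0.35. Between Pparα hep-/- and WT mice on the HFD, where Hp was not called, its difference was -0.0407 with the median signal so scaled. The cause was not tested.

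The number of members called also moved, and so did the number of all probes called, which is given after each count in the same order. Settings are named where the count of members moved by more than 1.5 times, or to or from 0. For the HFD in WT mice it was 0, but 2 with equal array weights, 1 with a slide block, 1 with a replicate block, 3 in the first wash, 2 without the 2 WT mice and 1 with equal weights as well (6249 of all probes, then 4201, 5622, 5250, 3814, 7107 and 5808). In Pparα hep-/- mice it was 6, but 1 with equal weights and 3 in the second wash (6734, then 1270 and 1746), and 4 to 6 elsewhere. In Pparα-/- mice it was 1, but 0 with equal weights, with no filter, in the second wash, at an adjusted p of 0.01 and with equal weights without the 2 WT mice, and 2 with the median or the processed signal scaled to the 75th percentile (8272, then 4033, 6021, 4055, 4607, 4422, 11384 and 8795). Between Pparα-/- and Pparα hep-/- mice on CTRL it was 6, but 3 with equal weights, 1 in the first wash and 3 at 0.01 (8399, then 6398, 2537 and 5489). Between them on the HFD it was 4, but 2 with no wash term, 1 with equal weights without the 2 WT mice, and 0 with equal weights, no filter, the first wash, the second wash or 0.01 (10188, then 8670, 6419, 6046, 8354, 4986, 6548 and 6861). Between Pparα-/- and WT mice on CTRL it was 5, but 3 with equal weights, the replicate block, no filter, the first wash or 0.01, and 1 in the second wash (11407, then 10345, 10619, 9888, 7267, 7851 and 6326). Between them on the HFD it was 2, but 1 with equal weights, the median or the processed signal so scaled, 8 without the 2 WT mice and 5 with equal weights as well (15241, then 10564, 17749, 16354, 15152 and 9884). Between Pparα hep-/- and WT mice on the HFD it was 1, but 4 without the 2 WT mice, 2 with equal weights as well, and 0 with equal weights, no wash term, the replicate block, no filter, the first wash or 0.01 (8894, then 8590, 2275, 3245, 6122, 7476, 5633, 2299 and 5271). For the difference of responses it was 0, but 1 for Pparα-/- minus Pparα hep-/- with the median or the processed signal so scaled (1139, then 1495 and 959), 1 for Pparα-/- minus WT with the processed signal (4781, then 4941) and 3 for Pparα hep-/- minus WT without the 2 WT mice (3472, then 4204).

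Leaving out 1 mouse at a time gave 0 to 2 members for the HFD in WT, 5 to 6 in Pparα hep-/- and 0 to 1 in Pparα-/- mice. On CTRL it gave 3 to 5 for Pparα-/- against WT, 0 to 1 for Pparα hep-/- against WT and 5 to 7 for Pparα-/- against Pparα hep-/- mice. On the HFD it gave 2 to 5, 0 to 4 and 0 to 5 in that order, and 0 to 2 for the response of Pparα hep-/- minus WT. Mice with the same replicate number in different groups had a median r of 0.0208, against -0.00122 for different numbers. Of 48 arrays 11 were most like an array of their own number, and the chance level of that count was not computed. The main fit did not pair mice by number, and whether the numbers pair them was not tested. The replicate block gave 1, 5 and 1 members for the HFD in WT, Pparα hep-/- and Pparα-/- mice. Of all probes 6734 were called for the HFD in Pparα hep-/- mice, and from 1270 with equal weights to 8331. Of the single-gene values under these settings 1799 stayed on the same side of the threshold, of which 142 changed sign, each without a call in either fit, while 78 lost the call, 36 gained one and 7 changed sign with a call in at least 1 fit.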
